A study of Prunus persica with 9 samples.

Results

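The peach miRNA genes ppe-MIR167a (ENSRNA049997214) and ppe-MIR390 (ENSRNA050003783), 2 of the 210 pre_miRNA genes in the deposited table, were taken by their identifiers. They are brought together because both act, directly or through other small RNAs, on auxin response factors (ARFs), and because one was described as an early and the other as a late responder to the peptide PpPep2. PpPep2 is a plant elicitor peptide, a short peptide that peach perceives as a signal of damage. Juvenile Prunus persica var. Big Top plants, multiplied in vitro and acclimatized in a glasshouse, were sprayed with 1 μM PpPep2 on both leaf surfaces. From each plant 5 young leaves were taken, their central vein was removed, and the blades of several plants were pooled into a replicate. Small RNA libraries were made in 3 replicates from leaves collected 1 h after PpPep2, in 3 replicates from leaves collected 24 h after PpPep2 and in 3 replicates of a control (t0). The control is a mock sample by its labels but untreated by the methods. All control libraries are from 0 h, so that PpPep2 cannot be told apart from the time elapsed and the handling in the comparisons with t0, nor from the time of day in the comparison at 1 h. The table holds no protein-coding genes, and the labelled tissue was therefore not checked against leaf markers. In such bulk samples fewer cells of a type and less of a miRNA per cell cannot be told apart.

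Plant miRNAs guide ARGONAUTE (AGO) proteins to complementary transcripts, which are then cleaved or not translated. Auxin response factors are the transcription factors that bind the promoters of auxin-regulated genes, and several of them are controlled by small RNAs. In Arabidopsis miR167 acts on them directly, pairing with the mRNAs of ARF6 and ARF8, activators of auxin-responsive transcription. The action of miR390 is indirect. It is loaded into AGO7 and triggers the production of trans-acting siRNAs from the TAS3 transcripts, and these siRNAs in turn silence ARF2, ARF3 and ARF4, which repress auxin-responsive transcription. No ARF or TAS3 transcript was measured in these libraries.

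Both genes have a predicted mature miRNA of 21 nt from the 5p arm, shown here from 5′ to 3′ with the seed (bases 2 to 8) in capitals because mismatches in the 5′ part of a plant miRNA are poorly tolerated by its targets.
ppe-miR167a: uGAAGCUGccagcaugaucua
ppe-miR390: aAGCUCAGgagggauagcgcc
The sequences have the same base at 5 of 21 positions and lie 12 single-base edits apart. Of the 39 mature sequences that the study lists for 33 genes, with 27 distinct seeds, none other carries either of these seeds. The nearest other sequence is that of miR169d for miR167a, at 9 edits, and that of miR156g for miR390, at 10 edits. The G and C content is 47.6% in miR167a and 61.9% in miR390. The first base, which in Arabidopsis helps to sort small RNAs among AGO proteins, is U in miR167a, as in 23 of the 39 sequences, and A in miR390, as in 2 of them. The names of any further miR167 or miR390 copies among the 210 genes were not used here, and whether reads were divided with such copies was not tested.

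The libraries held between 115519 reads on pre_miRNA genes (control replicate 2) and 546709 (control replicate 3), as read from the step between the deposited values. The libraries of PpPep2 lay between 138926 and 338631 reads. For miR167a these depths gave 66 to 509 reads per library, and for miR390 67 to 826 reads, all far above the 3 reads taken as the smallest visible amount. All read numbers and Poisson intervals here are estimates. Each library had only 64 to 80 low values, where 100 were needed to accept recovered reads. Replicates of a condition differed beyond counting noise over the whole table, at 22.3 to 268 times the chi-square that sampling alone would give. Replicate 1 of 1 h was the only PpPep2 library that lay nearer to the control than to its own group. Over the other 133 genes tested, its log2 values had a root mean square difference of 0.96 to the t0 mean and of 1.28 to the mean of the other 1 h replicates. To the 24 h mean the difference was 1.11, so this library was also nearer to 24 h than to its own group. The mean of its own group rests on fewer libraries than the other means. The changes of miR167a and miR390 that include it are given with and without it.

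The normalized counts of miR167a were 239, 188 and 172 in the control replicates. One hour after PpPep2 they were 401, 699.7 and 385, so that each 1 h library was above each control library. At 24 h they were 372, 261 and 219, all below the 1 h libraries, with replicate 3 inside the control range. Group means, given here and throughout as mean ± SD over the n = 3 replicates, were 200 ± 35.3 in the control, 495 ± 177 for 1 h and 284 ± 79.2 for 24 h. The order 1 h, 24 h, t0 thus had no overlap between 1 h and 24 h and an overlap between 24 h and t0. The gap below 1 h was narrow, since the lowest 1 h value (385, with a 95% Poisson interval of 337 to 437) and the highest 24 h value (372, interval 325 to 424) lay within counting error of each other. The highest value, in replicate 2 of 1 h, came from 509 reads with a 95% Poisson interval of 640 to 763 normalized counts, which does not reach the other replicates. Between the 1 h replicates the coefficient of variation was 35.8%, where counting error alone gives 5.24%. Such intervals cover counting error only, since amplified reads are not independent molecules.

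**Figure D1:**
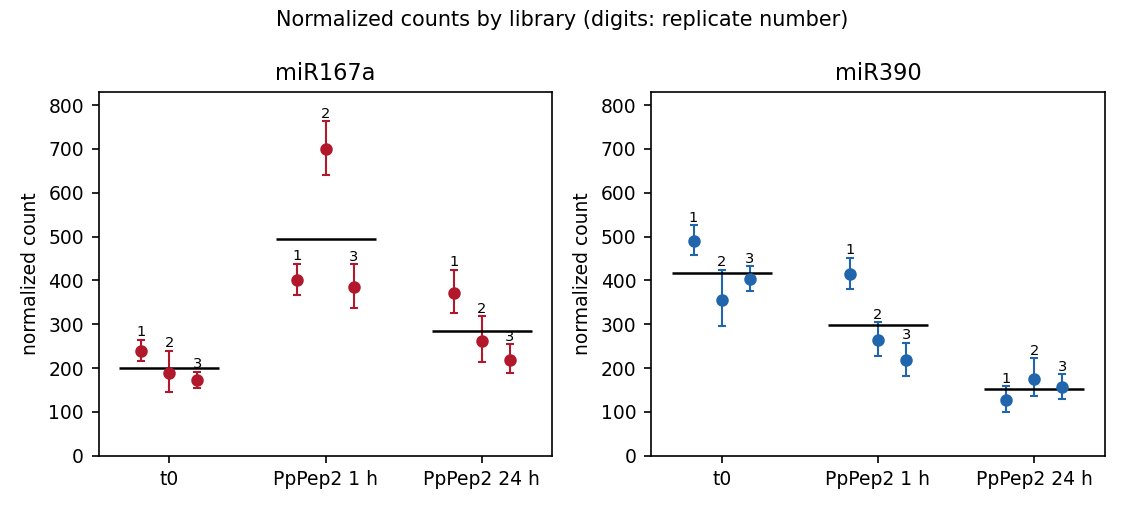
Normalized counts of miR167a and miR390 (vertical axes, from 0) in each of the 9 libraries, with digits for the replicate number, 95% Poisson intervals of the reads as bars and group means as horizontal lines. The 1 h libraries of miR167a, from 385 to 699.7, lie above all others of that gene, and the 24 h libraries of miR390, from 126 to 175, lie below all others of that gene.

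At 1 h against t0 the log2 fold change of miR167a was 1.26 (standard error 0.30, 95% interval 0.58 to 1.94), or 2.40-fold on the log2(normalized count + 1) scale. The adjusted p was 0.0802 (limma, Benjamini-Hochberg over the 135 genes), which did not pass 0.05. Only 1 gene (0.741% of those tested) passed in this comparison, and it was lower. By the DESeq2 Wald test, a different test from limma on normalized values, the study counted miR167a among its regulated miRNAs at 1 h. Among the 135 genes miR167a had the 6th highest change and the 4th smallest p. It was among the 12 genes (8.89%) whose 1 h libraries lay above the control libraries without overlap. These ranks and this share describe a gene chosen as an early responder and are no independent evidence of a rise. Without replicate 1 of 1 h the change was 1.39 and passed (adjusted p = 0.026, limma), while 18 genes in all passed in that fit. With the libraries scaled to the same upper quartile it was 1.58 and passed with an adjusted p of 0.0186 by the same limma test, in a range of 0.0186 to 0.151 over the alternatives with all replicates.

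At 24 h against t0 the log2 fold change of miR167a was 0.49 (standard error 0.30, 95% interval -0.19 to 1.17), and 8 of the 9 pairs of a 24 h and a control library had the higher value at 24 h. It did not pass (adjusted p = 0.286, limma), and its size was unsteady, at 0.20 with equal library totals, 0.78 with equal upper quartiles and 0.27 without replicate 1 of 24 h. From 1 h to 24 h the change was -0.78 (95% interval -1.46 to -0.10), or -0.90 without replicate 1 of 1 h and -0.50 without replicate 2 of 1 h. It was among the 13 genes (9.63%) whose 24 h libraries were all below the 1 h libraries, and the adjusted p was 0.336 (limma). By limma 0 of the 135 genes passed from 1 h to 24 h, and 18 (13.3%) had an unadjusted p under 0.05, miR167a among them at 0.0294. The return of miR167a toward the control level was therefore a difference in every pair of libraries that did not hold up over all genes tested.

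For miR390 the normalized counts of the control replicates were 491, 356 and 403. At 1 h they were 415, 264 and 218, with replicate 1 inside the control range and the other replicates below it. By 24 h they were 126, 175 and 156, below every control and every 1 h library. Its means fell from 416 ± 68.5 in the control to 152 ± 24.6 for 24 h, with 299 ± 103 for 1 h in between. The order t0, 1 h, 24 h had an overlap between its first neighbours and none between the others, although the 95% Poisson intervals of the lowest 1 h library (182 to 258) and the highest 24 h library (136 to 222) met. The coefficient of variation was 34.5% at 1 h and 16.2% at 24 h, where counting error alone gives 7.0% and 11%, the latter from 67 to 124 reads per library.

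Downregulation of miR390 passed the test at 24 h: its log2 fold change against t0 was -1.44 (standard error 0.27, 95% interval -2.06 to -0.83), or 2.72-fold lower. Its adjusted p was 0.0144 (limma), the 5th smallest p of the 135 genes. As miR390 was chosen as a late responder with earlier results of these data known, this pass is no independent evidence of a fall. In this comparison 19 genes (14.1%) passed, 12 of them (8.89%) lower and 7 (5.19%) higher. No overlap between the 24 h and the control libraries was found for 56 genes (41.5%), of which 29 (21.5%) were lower and 27 (20%) higher, so that non-overlap alone was common at 24 h. The adjusted p stayed between 0.00354 and 0.0319 in the alternatives with all replicates. It lost the call without control replicate 1 (-1.32, adjusted p = 0.0693), without control replicate 3 (-1.46, adjusted p = 0.0577) and without replicate 1 of 24 h (-1.32, adjusted p = 0.0583), all by limma. With either of these control replicates left out, limma called 0 of the genes.

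At 1 h the log2 fold change of miR390 was -0.52 (standard error 0.27, 95% interval -1.14 to 0.10) and did not pass (adjusted p = 0.362, limma). Only 2 of the 9 pairs of a 1 h and a control library had the higher value at 1 h, both of them with replicate 1 of 1 h. Without this replicate the change was -0.78 (adjusted p = 0.0612 by the same limma test), and the libraries no longer overlapped. It was smaller without replicate 3 of 1 h (-0.32, adjusted p = 0.74) and with equal upper quartiles (-0.20, adjusted p = 0.765), both by limma. From 1 h to 24 h the change was -0.93 (95% interval -1.54 to -0.31), or -0.66 without replicate 1 of 1 h, and had the 3rd smallest p of the 135 genes at an unadjusted 0.00812. It did not pass over all genes tested (adjusted p = 0.307, limma). Whether the 24 h fall went beyond a fall at 1 h was therefore not settled by this test, although no 24 h library reached a 1 h library. Only 5 genes (3.7%) had all 24 h libraries below all control and all 1 h libraries, as miR390 did, and 2 genes (1.48%) had all 1 h libraries above all others, as miR167a did. The genes were chosen as a late and an early responder, so these shares describe the choice and are no separate finding.

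**Figure D2:**
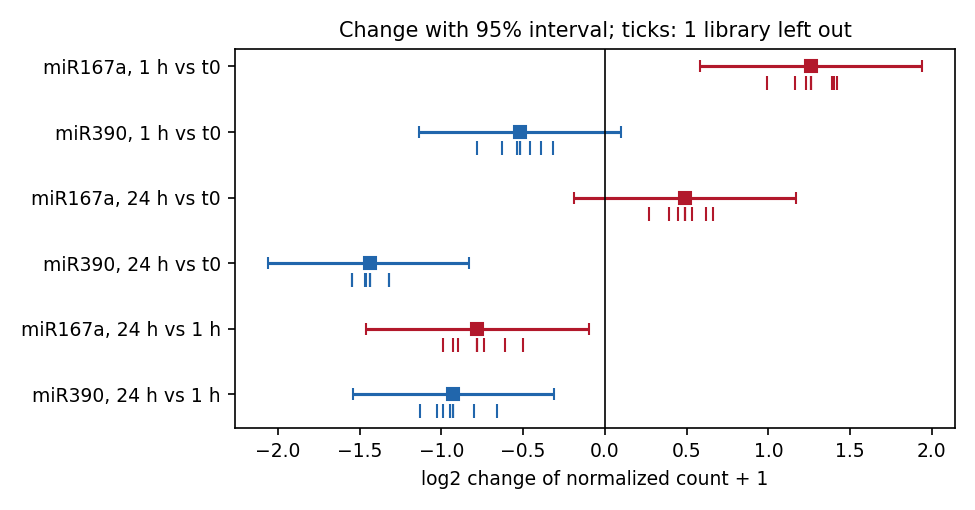
Log2 change of the normalized count + 1 (horizontal axis) of miR167a (red) and miR390 (blue) in the 3 comparisons, squares with 95% intervals from limma and, under them, ticks for the fits that each left out 1 library. Only the intervals of miR390 at 1 h and of miR167a at 24 h, both against t0, reach 0.

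The scaling of the libraries moved the size of the changes but not their direction. The median log2 change of the 135 genes at 24 h against t0 was -0.01 with the authors' normalization, -0.30 with equal totals and 0.27 with equal upper quartiles. At 1 h it was -0.03, -0.20 and 0.28. For miR167a the change at 1 h was 1.26, 1.10 and 1.58 in the same order of scalings, and at 24 h it was 0.49, 0.20 and 0.78. For miR390 it was -0.52, -0.69 and -0.20 at 1 h and -1.44, -1.73 and -1.15 at 24 h. Rescaling shifts all genes of a library alike, so the distance of a gene from the median of all genes, 1.30 for miR167a at 1 h and -1.43 for miR390 at 24 h, carries over by construction. As a share of the library total, miR167a took 0.0571% to 0.0800% in the control, 0.104% to 0.191% after 1 h and 0.0595% to 0.104% after 24 h. The share of miR390 was 0.108% to 0.164% in the control, 0.0591% to 0.151% after 1 h and 0.0352% to 0.0482% after 24 h.

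**Figure D3:**
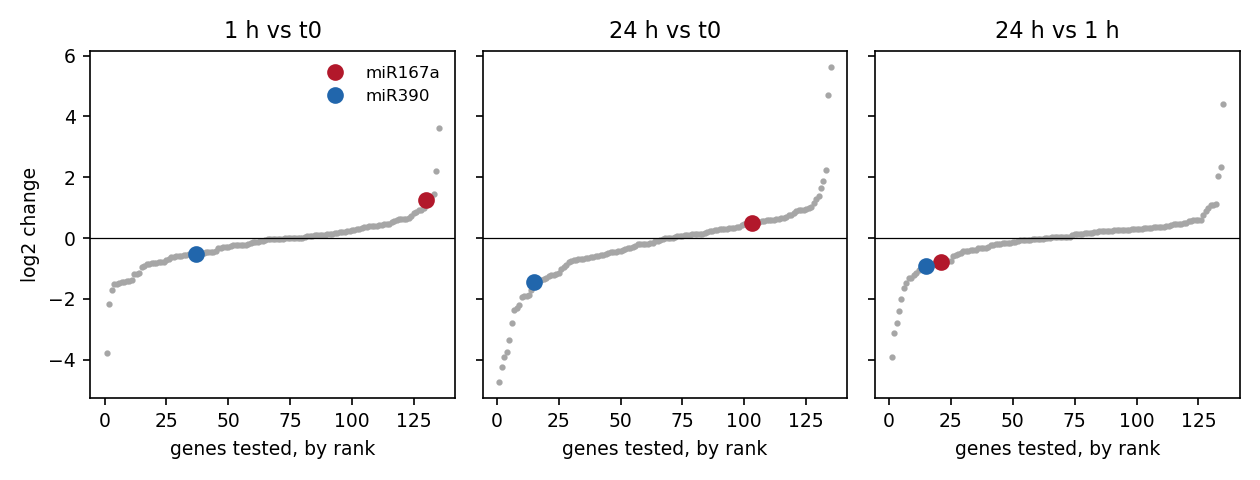
Log2 change (vertical axis) of the 135 genes tested, ranked from lowest to highest (horizontal axis) in each comparison, with miR167a in red and miR390 in blue. At 1 h miR167a is 6th from the top and miR390 37th from the bottom, at 24 h against t0 they are 33rd from the top and 15th from the bottom, and from 1 h to 24 h they are 21st and 15th from the bottom.

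In ratios between genes of the same library, scaling enters only through the 1 added to each normalized count, and so mainly for low genes. The ratio of miR167a to each of the 134 other genes tested was higher in all 1 h than in all control libraries for 93 genes and lower for 0. For the median gene these numbers were 8 and 6, and only 2 genes had more than 93. At 24 h the ratio of miR390 to the others was lower than in all control libraries for 89 genes, where the median gene had 16 and 10 genes had more. From 1 h to 24 h miR390 was lower relative to 72 genes and miR167a relative to 46, where the median gene had 3. These counts describe the libraries, since the ratios share the same values of miR167a or miR390.

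Set against each other within a library, the genes parted from the control at 1 h and stayed apart at 24 h. The ratio of miR167a to miR390 was 0.488, 0.528 and 0.426 in the control replicates. It was 0.967, 2.65 and 1.77 at 1 h and 2.95, 1.49 and 1.40 at 24 h. Every PpPep2 library thus lay above every control library, and the 1 h and 24 h libraries overlapped. On the log2 scale the mean was -1.06 ± 0.16 in the control, 0.73 ± 0.73 one hour after PpPep2 and 0.88 ± 0.59 after 24 h. The ratio was 3.46-fold above the control at 1 h and 3.83-fold at 24 h. On the log2 scale the shift at 1 h was 1.79, or 2.18 without replicate 1 of 1 h. No test is given for it, because the genes were paired for their opposite changes. Nor was the separation from the control particular to this pair. At 1 h miR167a was higher without overlap relative to 93 of the 134 other genes, and miR390 lower relative to 20. At 24 h these numbers were 45 for miR167a and 89 for miR390. The ratio of miR167a to miR390 is of reads and not of molecules, so only its change between conditions can be read.

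The shift of the ratio from the control was carried mostly by miR167a at 1 h and mostly by miR390 at 24 h. At 1 h miR167a made up 70.9% of the log2 shift and miR390 29.1%, whereas at 24 h miR167a made up 25.2% and miR390 74.8%. With equal totals the share of miR167a was 61.6% at 1 h and 10.3% at 24 h, and with equal upper quartiles it was 88.7% and 40.6%. The genes were chosen as an early and a late responder, so that these shares describe the choice and are no separate finding. Between 1 h and 24 h the log2 ratio differed by 0.15, less than the spread between replicates, and both genes were lower at 24 h in all 9 pairs of libraries. The sign of this small difference turned without replicate 1 of 1 h (-0.24) and without replicate 1 of 24 h (-0.19). Replicate 1 of 1 h, where miR390 was within the control range while miR167a was above it, had the lowest ratio of the PpPep2 libraries.

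**Figure D4:**
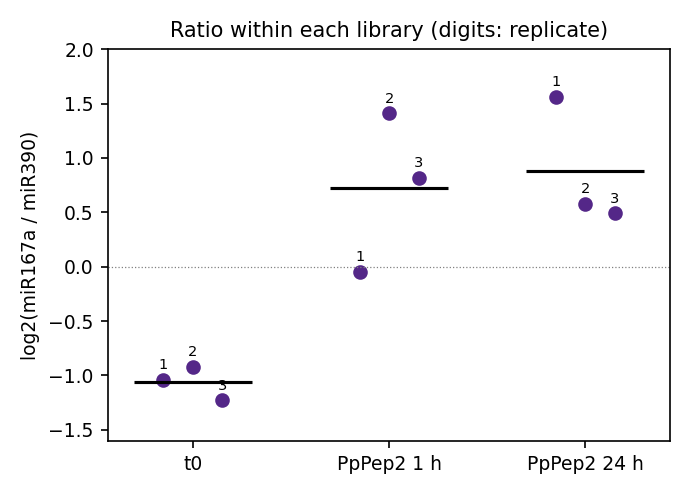
Log2 ratio of the normalized counts of miR167a and miR390 (vertical axis) within each of the 9 libraries, with digits for the replicate number and horizontal lines for group means. The log2 ratio spans -1.23 to -0.92 in the control, -0.05 to 1.41 one hour after PpPep2 and 0.49 to 1.56 after 24 h.

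The genes whose profile was most like that of each were found from the root mean square difference of centred log2 values over the 9 libraries, which share the 3 conditions. For miR167a the smallest differences were 0.43 for ENSRNA049996904, 0.48 for ENSRNA049996257 and 0.49 for miR171a (ENSRNA049996592), against a median of 0.77 over the other genes. In Arabidopsis miR171 acts on GRAS transcription factors. Of these, ENSRNA049996904 had its highest mean at 1 h, with 16.5 ± 2.22 normalized counts in the control, 28.1 ± 6.68 after 1 h and 21.4 ± 8.20 after 24 h, but its 1 h and 24 h libraries overlapped. It is a low gene, with 14.22 normalized counts in control replicate 2, where 3 reads correspond to 8.53, so its profile rests on few reads. For the others the 24 h mean was level with or above that of 1 h: ENSRNA049996257 had 6072 ± 1473 after 1 h and 6071 ± 281 after 24 h, and miR171a had its highest mean, 111 ± 19.0, after 24 h. At 24 h against t0 their changes of 0.67 and 0.56 did not pass (adjusted p = 0.0569 and 0.0729, limma).

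For miR390 closer companions were found. The differences were 0.30 for miR482c (ENSRNA049996546), which in other plants acts on resistance genes, and 0.34 for both ENSRNA050004180 and miR168 (ENSRNA049996833), the regulator of AGO1. The median over the other genes was 0.81. The normalized counts of miR482c averaged 4406 ± 455 in the control, 2720 ± 1683 after 1 h and 1915 ± 518 after 24 h. Like miR390, it had a replicate 1 of 1 h inside the control range, with 4652 against 1940 and 1569 in the other replicates. ENSRNA050004180 was downregulated after 24 h (control 207 ± 24.5, 24 h 93.8 ± 23.8), by a log2 change of -1.16 that passed (adjusted p = 0.0363, limma), as it did in 4 of the 9 fits with 1 library left out. The log2 changes of miR482c at -1.23 (adjusted p = 0.0638) and of miR168 at -0.69 (adjusted p = 0.122) did not pass. The profiles of miR167a and miR390 differed by 0.99, and each came 96th of 134 in likeness to the other.

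**Figure D5:**
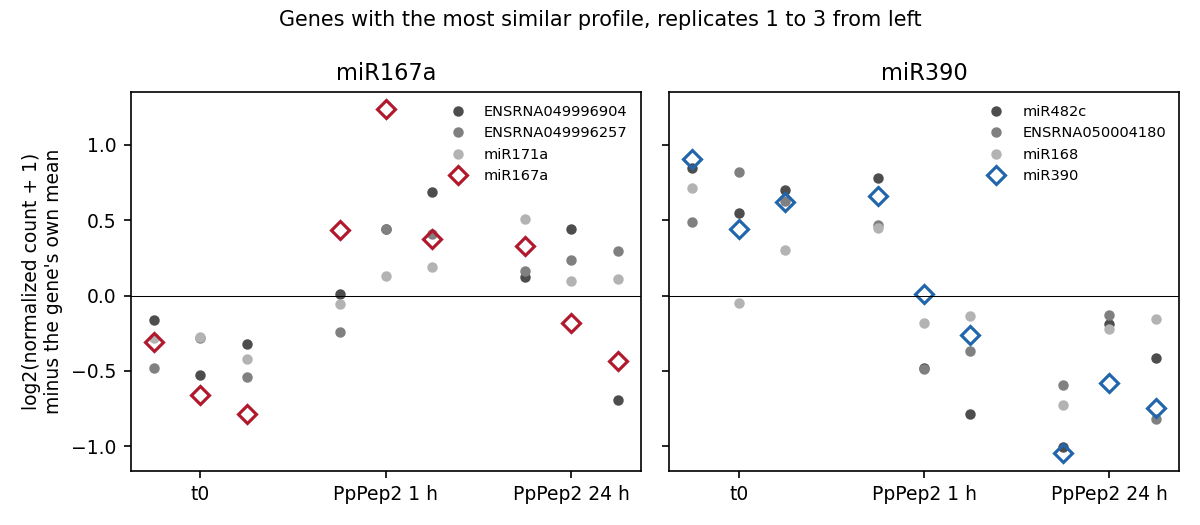
Centred log2(normalized count + 1) (vertical axis) of miR167a and miR390 (diamonds) and of the 3 genes most like each (grey dots) in the 9 libraries, with replicates 1 to 3 from left to right in each condition. The genes near miR390 share its high replicate 1 of 1 h, and those near miR167a lie below its 1 h replicate 2.

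Other named miRNAs were compared as lists drawn from the study's own table of regulated miRNAs, which was chosen on these samples and is no independent evidence of a direction. Among 9 miRNAs that act on transcription factors, 0 passed at 1 h (0.741% of all genes tested did). At 24 h 1 passed as higher and 3 as lower, where 5.19% of all genes tested passed as higher and 8.89% as lower. The higher one was miR396b, a regulator of growth-regulating factors. The lower ones were miR156h, which acts on SPL genes, miR169d, which acts on NF-YA genes, and miR166e, which acts on HD-ZIP III genes. In replicates 1 and 2 of 24 h miR169d had 4.92 and 7.84 normalized counts, which is 3 reads, the smallest visible amount. For miR166e (ENSRNA049996894) the control mean was 2574 ± 447 and the 24 h mean 801 ± 159, and its log2 change of -1.69 passed (adjusted p = 0.0363, limma). The median log2 change of this list at 24 h was 0.56, beside -0.01 over all genes tested. Its genes miR156g and miR156h, and likewise miR171a and miR171c, share a mature sequence, so that their reads may not be told apart. By 24 h miR156g (ENSRNA049996926) went the other way to miR156h, from 1.48 ± 1.31 in the control to 170 ± 153. The log2 change of miR156g, 5.64, did not pass (adjusted p = 0.0643, limma).

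The miRNAs that trigger secondary siRNAs, as miR390 does, include miR7122a, miR7122b and the miR482 genes. Of these 6, 3 passed as higher at 24 h (5.19% of all genes tested) and 0 as lower (8.89% of all genes tested), and 0 passed at 1 h by limma (0.741%). One of the 3 was miR482f (ENSRNA049996209), with a control mean of 3215 ± 311 and a 24 h mean of 6556 ± 909, whose log2 change was 1.02 (adjusted p = 0.0246, limma). The others were miR7122a and miR7122b. The median log2 change of the list at 24 h was 0.98, beside -0.01 over all genes tested. The called triggers had the opposite direction to miR390, whereas miR482c, of the same list, had the lower log2 change of -1.23 given above, which did not pass (adjusted p = 0.0638, limma).

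Among the regulators of the silencing machinery itself, miR162, which acts on DCL1, and miR403, which acts on AGO2, passed as higher at 24 h, where 5.19% of all genes tested did. The mean of miR162 (ENSRNA049996910) was 2901 ± 200 in the control and 4694 ± 609 after 24 h, a log2 change of 0.69 (adjusted p = 0.0377, limma). For miR403 (ENSRNA049996042) the means were 1307 ± 176 and 2510 ± 341, a log2 change of 0.94 (adjusted p = 0.0246, limma). The median log2 change of these 3 genes was 0.69, beside -0.01 over all genes tested, miR168 did not pass, and at 1 h 0 of the 3 passed. These calls share their libraries with those of miR167a and miR390 and rest on few of them. Of the 9 fits that each omit 1 library, 3 kept the call for miR166e, miR396b and miR482f, 5 for miR156h, miR403 and miR7122a, 7 for miR169d and miR7122b and 2 for miR162, and none of them held without control replicate 1 or without control replicate 3.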

How the data were processed

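The authors deposited 1 signal column per library, holding normalized counts. Per the labels and methods, the authors trimmed reads with Trim Galore 0.6.6, mapped them with STAR 2.5.3a to Prunus_persica_NCBIv2.38, quantified annotated genes with RSEM 1.3.0 and normalized pre_miRNA genes with DESeq2 1.26.0. Division of reads between copies and scaling are therefore already in the values. Conditions and replicates come from the labels. Reads were taken as the value divided by the step between values (0.4882 to 2.8444), which fitted 100.0% of values within their rounding.

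Only genes averaging 5 or more (135) entered limma 3.58.1 (R 4.3.3) as log2(normalized count + 1), in 1 fit to the 9 libraries with the empirical Bayes trend, and p-values were adjusted by Benjamini-Hochberg at 0.05. This scale understates changes of low genes. The fit was tested on simulated data. Per the methods, replicates are separate pools of plants. Alternatives were 0.5 or 5 added, no minimum mean or 20, equal totals or upper quartiles, no trend, only the 6 libraries compared, a replicate block and each library left out. Other computations used pandas 2.3.3, scipy 1.17.1 and numpy 2.4.6 under Python 3.11.15, and figures used matplotlib 3.10.9. The named genes are both members, the 3 most like each and those of 3 lists that passed. Values of miR156g were added because it shares the mature sequence of miR156h. Members and lists were chosen with earlier results of these data known. Names and sequences come from the study's table of mature sequences, as the reference table matched 0 of the 210 identifiers. The alternatives for listed genes were added after seeing the data.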

Additional observations from a re-analysis of the deposited data

How the results depend on the processing

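The directions of miR167a and miR390 held in each of the 9 alternatives with all replicates and the 9 fits with a library left out, in all 3 comparisons. For miR167a at 1 h the call was gained with equal upper quartiles (1.58), where the median of all genes is shifted by 0.28, and its log2 change ran from 0.99 to 1.42 with a library left out, where it passed in 1 of 9 fits. For miR390 at 24 h the change ran from -1.55 to -1.32 with a library left out and passed in 6 of 9 fits; these fits have fewer samples. The miR167a to miR390 log2 ratio from 1 h to 24 h ran from -0.24 to 0.49 and turned its sign in 2 of 9 fits (-0.24 and -0.19); the cause was not tested.

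With the replicate number as a block, the change of miR390 at 24 h was -1.44 (adjusted p = 0.0319) and that of miR167a at 1 h 1.26 (adjusted p = 0.148, limma), and no call of either gene changed. The numbers were not taken as pairs, since deviations of same-numbered libraries correlated between -0.41 and 0.17. Even so, at 1 h the same-numbered control was the best match of replicates 1, 2 and 3, at 0.01, 0.17 and 0.16. At 24 h it was the best match of replicates 2 and 3, at 0.13 and 0.04, but not of replicate 1, at -0.03. The number of genes called at 24 h went from 19 to 10 with the block, 12 without the trend, and 31 with equal upper quartiles or with only the libraries compared. It was 0 without control replicate 1 or 3, 7 without control replicate 2, 35 without replicate 1 of 1 h, and 5, 10 and 7 without replicates 1, 2 and 3 of 24 h. At 1 h it went from 1 to 2 with equal totals and 7 with equal upper quartiles, was 18 without replicate 1 of 1 h and was at most 1 without any other library. From 1 h to 24 h it was 0 in the alternatives with all replicates and at most 2 with a library left out. The planned count tests were not run, because each library had only 64 to 80 low values where 100 were needed to accept recovered reads. Depth was lowest for miR167a in control replicate 2 (66 reads) and for miR390 in replicate 2 of 24 h (67 reads). Of the listed genes called at 24 h, miR162, miR166e and miR396b, and also ENSRNA050004180, kept the call in 6 of 9 alternatives, and the direction never turned.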

Other observations

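Besides miR167a, the gene with all 1 h libraries above all others was ENSRNA049996971, named here after its values were seen. It averaged 21.3 ± 8.74 normalized counts (SD, n = 3) in the control, 44.9 ± 25.8 one hour after PpPep2 and 16.5 ± 6.30 after 24 h, and its log2 change at 1 h of 1.00 did not pass (adjusted p = 0.354, limma). The gap was narrow, with 28.87 in replicate 2 of 1 h against 27.98 in control replicate 1. A mean that was highest at 1 h and lowest at t0 was the least common of the 6 possible orders among the 135 genes, with 10 genes (7.41%).

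Besides miR390, the genes with all 24 h libraries below all others were miR169d, miR395f, miR395j and miR8127, also named after their values were seen. In Arabidopsis miR395 acts on sulfate assimilation. The genes miR395f and miR395j share a mature sequence, so that their reads may not be told apart. Their 24 h means were low, at 3.74 ± 3.31 and 4.92 ± 8.52. That of miR169d was 10.1 ± 6.65, with replicates 1 and 2 at the smallest visible amount of 3 reads. The call of miR395j at 24 h against t0 held in 2 of the 9 fits with a library left out. On the log2 scale the smallest difference of these was that of miR8127 (ENSRNA049996319), with 1745 ± 82.1 normalized counts (SD, n = 3) in the control and 1372 ± 38.0 after 24 h. It did not pass (adjusted p = 0.174, limma). The stepwise order t0, 1 h, 24 h of the means, which miR390 had, was the most common, with 37 genes (27.4%). It was not the order of miR8127, whose mean was highest at 1 h, at 1803 ± 286.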
